A study of Homo sapiens with 10 samples.

Results

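The ribosomal protein genes encode the proteins of the cytoplasmic ribosome. They were taken here as the protein-coding genes of the RefSeq table of GRCh38 patch 14 whose symbols are RPL or RPS plus digits, with the A, X and L forms, together with the stalk genes RPLP0 to RPLP2 and RPSA. Kinases of the RPS6K family, pseudogenes and readthrough loci were left out. This gave 85 of 20056 protein-coding genes. A site of the count table was assigned to a gene when its midpoint lay in the gene or within 2 kb of either end, which gave 131 of 52981 sites. Of the 85 genes, 82 had at least 1 site (96.5%), against 71.6% of all protein-coding genes. RPL10L, RPL31 and RPL32 had none.

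The series mapped ZEB1, a zinc finger transcription factor best known as a repressor of epithelial genes, by CUT&RUN in human breast cancer cells that the labels place in a line called MDA and describe as Er-/Pr-/Her2-. In CUT&RUN an antibody brings a nuclease to the sites where a protein sits, and the released DNA is sequenced; the labels also speak of Tn5, an enzyme of another protocol, and which was used was not resolved. Untreated cells carry the line label MDA_Parental. The other 3 groups received 300 nM eribulin, a drug that blocks microtubule growth, for 24, 48 or 72 h. Each group had 2 ZEB1 libraries, and 2 IgG libraries of untreated cells were not analysed here. The 3 exposures share 1 untreated control whose time in culture the labels leave out, so drug and culture time cannot be told apart. RNA was not measured, so neither the cell type nor the output of the genes could be checked against expression.

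As background, every growing cell needs the proteins of both ribosomal subunits in equal number, and their genes are short, strongly transcribed and active in nearly all cells. Many begin transcription at a C followed by a run of pyrimidines, the terminal oligopyrimidine (TOP) motif, through which mTOR signalling controls translation of their mRNAs. Several carry small nucleolar RNAs in their introns. ZEB1 binds E-boxes, of which CAGGTG, read on either strand, is the best known.

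Counts in sites summed to between 1130706 and 3561455 per library, with control the deepest and 72 h the shallowest. The libraries of a condition differed by less than their sampling noise (chi-square per degree of freedom between 0.830 and 0.951), so each pair was counted as 1 sample (n = 1 per condition). Adjusted p-values therefore compare these libraries, not the conditions, and no value has a check between cultures. Signal is given as TMM-scaled CPM, a count relative to the library total, and 95% intervals of log2 fold changes cover counting error only. TMM centres the sites on each other, so "higher" and "lower" compare a site with the rest. Using the background level of the peak caller as the scale moved the median log2 change of all sites by -0.93, -1.41 and -1.50 at the successive times, so a site that rose by less than these amounts was below its control level on that scale.

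Most ribosomal protein genes carried a called ZEB1 peak in untreated cells, and fewer did after 48 and 72 h. Untreated cells had peaks at 80 of the 85 genes (94.1%). The 24 h list had them at 78 (91.8%), the 48 h list at 54 (63.5%) and the 72 h list at 52 (61.2%). The shares for all protein-coding genes were 68.6%, 62.3%, 49.2% and 43.7%. The deposited lists shorten in the same order, and the site counts per library fall with them. Of the 131 sites, 50 held a peak in all 4 conditions, 29 only in control and at 24 h, 12 only in control and 8 only at 72 h. These combinations are given for member sites only. By condition, 87.0%, 80.2%, 51.9% and 51.9% of the member sites held a peak in control and at 24, 48 and 72 h. Over all sites of the count table these shares were 86.6%, 61.3%, 39.4% and 32.1%. The 114 member sites with a peak in control had a median fold enrichment, as the authors' peak caller gave it, of 9.88. The median over all peaks of the control list was 9.12. At 72 h these values were 5.74 and 6.54. A member site with several peaks was given the highest of them, so the member medians and the list medians are not built alike.

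**Figure D1:**
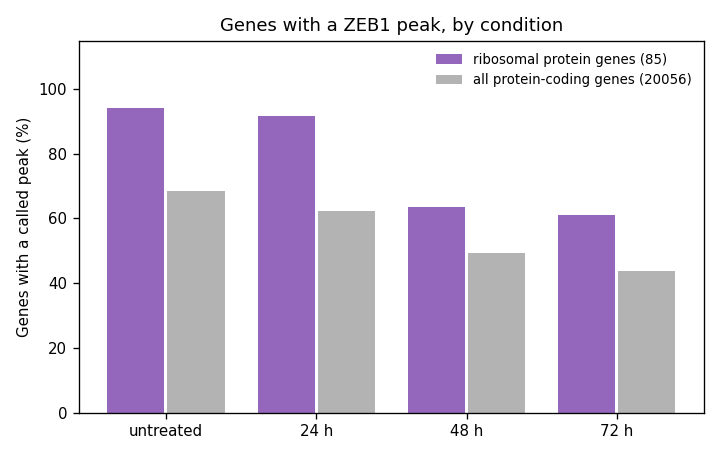
Share of genes with a called ZEB1 peak (vertical axis, %) in each condition (horizontal axis), for the 85 ribosomal protein genes and for all 20056 protein-coding genes. The ribosomal protein genes go from 94.1% in untreated cells to 61.2% at 72 h and lie above all genes in each condition; the total number of peaks also falls.

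The signal lay at the promoters. RefSeq promoter entries gave the start and strand of 68 members; the other 17 had no entry. Of these 68 genes, 63 (92.6%) had a site whose midpoint lay within 1 kb of a start, against 58.8% of the protein-coding genes with a listed start. The 67 start sites were centred a median of 105 bases before the first base (quartiles at positions -209.5 and -31.5 from it), and only 12 had their midpoint after it. A further 36 sites lay more than 1 kb downstream of the nearest listed start, 6 more than 1 kb upstream of it, and 22 belonged to genes without a listed start. A site in the upstream class can lie inside the gene, as at RPL26L1, whose listed starts are internal. Another protein-coding gene lay within 2 kb of 58 of the 131 sites, and the counts do not say which gene such a site serves. Readthrough loci of a member count as another gene here, such as RPL17-C18orf32 at the RPL17 start. Member sites were wider than the average site (median 364 against 229 bases) and stronger in control (median 17.5 against 10.4 CPM, with 98 of 131 above the median of all sites).

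The promoters that anchor the results below are shown first, as RefSeq GRCh38 patch 14 gives them, 5′ to 3′ from 250 bases before the first base of the gene to 30 bases from it onwards. Capitals mark CAGGTG on either strand, the element TCTCGCGA on either strand, and a first base C with the pyrimidine run after it. RPLP0 (chr12:120201082-120201361, minus strand), RPL36AL (chr14:49620597-49620876, minus strand) and RPS29 (chr14:49598681-49598960, minus strand) are shown for their E-boxes. RPS19 (chr19:41860005-41860284, plus strand), RPL7A (chr9:133347968-133348247, plus strand) and RPS15 (chr19:1438146-1438425, plus strand) hold TCTCGCGA close to the start. RPS12 (chr6:132814319-132814598, plus strand) shows a pyrimidine start alone. RPL27 (chr17:42998169-42998448, plus strand), whose site fell most at 72 h among the start sites, holds none of the 3 as marked. Its listed first base lies inside the gene as RefSeq bounds it, and an unmarked pyrimidine run follows a few bases later.
RPLP0: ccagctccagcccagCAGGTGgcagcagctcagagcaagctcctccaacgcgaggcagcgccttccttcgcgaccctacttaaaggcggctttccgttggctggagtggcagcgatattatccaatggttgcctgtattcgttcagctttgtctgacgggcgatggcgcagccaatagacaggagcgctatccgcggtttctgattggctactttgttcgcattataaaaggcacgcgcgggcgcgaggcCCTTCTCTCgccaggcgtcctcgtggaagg
RPL36AL: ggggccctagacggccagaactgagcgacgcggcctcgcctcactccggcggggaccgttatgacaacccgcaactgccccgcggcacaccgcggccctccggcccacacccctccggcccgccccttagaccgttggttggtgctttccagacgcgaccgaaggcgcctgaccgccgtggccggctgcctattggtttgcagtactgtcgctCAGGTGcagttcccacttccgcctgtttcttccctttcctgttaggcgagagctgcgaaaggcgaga
RPS29: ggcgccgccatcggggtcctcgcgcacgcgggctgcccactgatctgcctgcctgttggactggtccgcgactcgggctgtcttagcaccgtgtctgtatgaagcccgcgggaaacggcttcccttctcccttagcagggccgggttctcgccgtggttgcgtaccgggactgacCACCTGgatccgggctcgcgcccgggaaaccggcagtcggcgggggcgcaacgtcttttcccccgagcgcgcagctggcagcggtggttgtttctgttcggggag
RPS19: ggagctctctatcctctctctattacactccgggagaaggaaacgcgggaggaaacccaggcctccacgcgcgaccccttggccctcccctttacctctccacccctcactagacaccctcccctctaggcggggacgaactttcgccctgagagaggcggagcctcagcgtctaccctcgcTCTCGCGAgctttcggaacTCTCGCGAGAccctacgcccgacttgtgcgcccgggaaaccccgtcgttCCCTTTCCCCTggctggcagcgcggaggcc
RPL7A: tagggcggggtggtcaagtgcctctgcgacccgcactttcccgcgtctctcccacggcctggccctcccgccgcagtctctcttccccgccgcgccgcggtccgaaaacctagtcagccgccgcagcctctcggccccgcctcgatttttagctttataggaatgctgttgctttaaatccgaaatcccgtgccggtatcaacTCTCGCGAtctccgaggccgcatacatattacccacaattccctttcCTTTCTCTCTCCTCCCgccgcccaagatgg
RPS15: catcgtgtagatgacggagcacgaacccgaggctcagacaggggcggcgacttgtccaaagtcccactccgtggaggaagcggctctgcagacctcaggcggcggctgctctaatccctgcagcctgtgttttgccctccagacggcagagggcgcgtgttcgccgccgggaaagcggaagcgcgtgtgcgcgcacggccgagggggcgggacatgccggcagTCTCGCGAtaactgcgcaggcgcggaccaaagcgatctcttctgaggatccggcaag
RPS12: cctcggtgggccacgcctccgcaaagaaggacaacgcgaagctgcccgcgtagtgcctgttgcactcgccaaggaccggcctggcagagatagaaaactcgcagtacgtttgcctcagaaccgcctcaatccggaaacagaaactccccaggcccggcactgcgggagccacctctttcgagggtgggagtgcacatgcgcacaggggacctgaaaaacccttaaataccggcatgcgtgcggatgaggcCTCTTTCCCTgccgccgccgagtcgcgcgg
RPL27: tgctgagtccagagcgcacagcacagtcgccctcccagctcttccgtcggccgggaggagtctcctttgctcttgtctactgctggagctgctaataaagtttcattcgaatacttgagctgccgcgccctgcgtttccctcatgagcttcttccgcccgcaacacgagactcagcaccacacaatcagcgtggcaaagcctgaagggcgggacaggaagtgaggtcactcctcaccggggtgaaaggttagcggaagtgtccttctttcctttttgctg

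The ZEB1 E-box was rarer in these promoters than in others. Motifs were searched in windows of 300 bases, from 250 before the first base to 50 from it onwards, in 84 windows of the 68 genes and in all 22199 windows of protein-coding genes in the table. CAGGTG, on either strand, occurred in 8 of the 84 windows (9.52%) and in 19.9% of all windows. Those windows belong to RPL15, RPL26L1, RPL32, RPL36AL, RPLP0, RPS21, RPS24 and RPS29, and RPL36AL has 2 copies. The MYC E-box CACGTG was in 5.95% against 8.34% of windows and the AP-1 element TGANTCA in 2.38% against 6.15%. The ETS core CCGGAA was in 52.4% against 21.2%, and TCTCGCGA in 13 windows (15.5%) against 1.58%. A first base C followed by at least 4 pyrimidines stood in 47 windows, 1 in each of 47 genes (56.0%), against 4.54% of all windows. This pattern was added after the sequences had been seen. It was matched only at the listed first base, so a run a few bases away, as in RPL27 and RPS15, was not counted. The GC content was similar, with a median of 59.7% against 62.3%. A match describes letters in the window and not a bound site.

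Among the strongest sites in untreated cells, those of RPL41 and RPS25 were lower at 24 h. RPL41, which encodes the smallest ribosomal protein, carried its site at chr12:56117931-56118726, 1695 bases downstream of its listed start. Its values were 101 and 96.8 CPM in control, 68.4 and 75.4 in the 24 h pair, 96.0 and 100 in the 48 h pair, and 96.5 and 85.1 in the 72 h pair, with a log2 change of -0.47 at 24 h (95% interval -0.67 to -0.26; edgeR adjusted p = 1.76e-05). The 24 h libraries stood below all others. ZC3H10 lies within 2 kb of this site. RPS25, a protein used by some viral internal ribosome entry sites, went at its promoter (chr11:119018302-119018815) from 57.5 and 55.2 CPM in control to 43.3 and 34.3 in the 24 h pair, 32.5 and 37.6 in the 48 h pair, and 48.3 and 40.7 in the 72 h pair. It was lower at 24 h (-0.54, -0.82 to -0.26; edgeR adjusted p = 0.000265) and at 48 h (-0.68, -1.03 to -0.35; edgeR adjusted p = 0.000133), and the 72 h value did not pass (adjusted p = 0.0799).

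Others of the strongest sites parted at 72 h. RPL27 lost signal at its promoter (chr17:42998089-42998687), from 70.3 and 71.6 CPM in control to 67.4 and 52.7 in the 24 h pair, 55.2 and 54.6 in the 48 h pair, and 23.7 and 36.2 in the 72 h pair. The 72 h change was -1.25 (-1.64 to -0.88; edgeR adjusted p = 3.96e-12), and all treated libraries lay below both control libraries. RPL18 (chr19:48619204-48619675) measured 73.7 and 68.7 CPM in control and 56.7 and 42.6 in the 72 h pair, a change of -0.52 (-0.82 to -0.22; edgeR adjusted p = 0.00195) that did not pass without 72 h replicate 2 (-0.33). RPLP0, the scaffold of the ribosomal stalk that recruits elongation factors, rose at its promoter (chr12:120201099-120201462), from 53.0 and 60.7 CPM in control to 64.9 and 53.8 in the 24 h pair, 66.5 and 70.9 in the 48 h pair, and 96.5 and 89.6 in the 72 h pair. That is 0.72 at 72 h (0.47 to 0.97; edgeR adjusted p = 2.35e-07), and -0.78 when scaled to the background level.

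**Figure D2:**
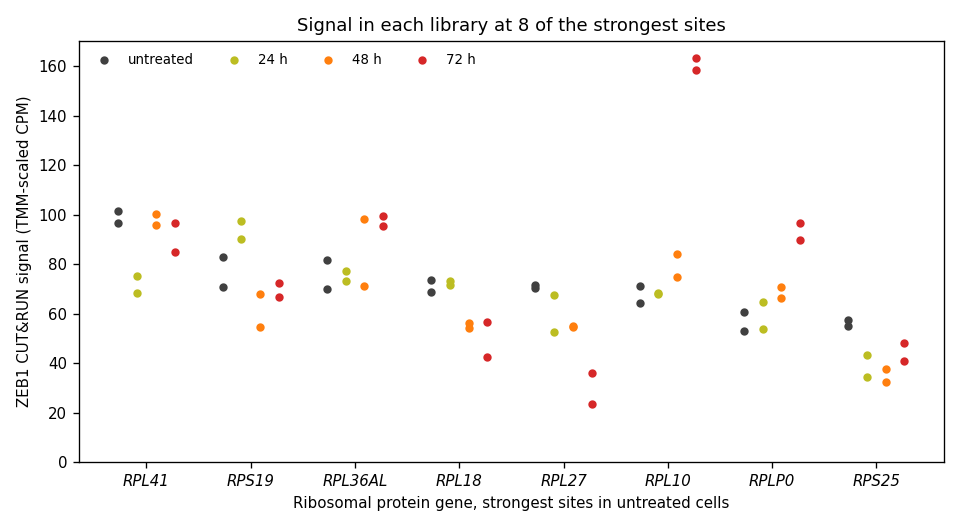
ZEB1 CUT&RUN signal (vertical axis, TMM-scaled CPM) at 8 of the member sites strongest in untreated cells (horizontal axis, named by gene); each point is 1 library and colours mark the condition. RPL10 stands at 163 and 158 CPM at 72 h against 71.1 and 64.5 in control, whereas RPL27 drops to 23.7 and 36.2; scaled to the background level, RPL10 at 72 h lies below control (-0.26).

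At 24 h the member sites as a group lay slightly above the average site. Of the 128 sites tested, 21 were lower and 42 higher than in control, where 26.8% of all tested sites were lower and 28.1% higher. The median log2 fold change was 0.22, against 0.02 over all tested sites. Without 24 h replicate 2 the number of higher sites was 27. The direction depended on the scaling, since TMM factors computed only from the sites with the lowest counts gave 31 lower and 24 higher, and the background level gave 87 lower and 2 higher. At 48 h, 17 sites were lower and 28 higher (16.9% and 16.8% of all sites), with a median of 0.06 against -0.01. Without 48 h replicate 1 these were 9 and 18, and without 48 h replicate 2 only 8 were lower. Scaling by the low-count sites gave 28 lower and 22 higher, and by the background level 112 and 3. At 72 h, 12 were lower and 40 higher (17% and 18.9% of all sites), with a median of 0.06 against 0.00. Without 72 h replicate 1, 6 were lower. Scaling by the low-count sites gave 21 and 31, and by the background level 109 and 9.

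Promoter sites were called higher at 24 h in a share near that of promoters in general, and their median was below 0 at 48 and 72 h. Of 66 tested start sites, 9 were lower (13.6%) and 21 higher (31.8%) at 24 h, with a median of 0.26. Over all 9378 tested sites within 1 kb of a protein-coding gene start, 19.9% were lower and 30.3% higher, with a median of 0.14. At 48 h, 11 member start sites were lower and 8 higher (16.7% and 12.1%, median -0.07), against 10.8% and 13.5% over all start sites (median 0.06). At 72 h, 9 were lower and 10 higher (13.6% and 15.2%, median -0.12), against 10.3% and 17.1% (median 0.09). Leaving out 24 h replicate 2 left 10 higher at 24 h. With TMM from the low-count sites, 15 start sites were lower and 7 higher at 24 h, and with the background level 48 were lower and 0 higher. Between 24 and 72 h, 16 member start sites fell and 6 rose (24.2% and 9.09%, median -0.41). Over all tested start sites 18.2% fell and 19.3% rose (median -0.03), and over all tested sites 16.4% fell and 19.4% rose.

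The start sites with the largest 24 h rises among the named sites were those of RPS15 and RPS12. RPS15, a protein of the small subunit head, measured 13.3 and 19.0 CPM in control, 34.2 and 41.1 in the 24 h pair, 16.6 and 31.7 in the 48 h pair, and 15.2 and 16.3 in the 72 h pair (chr19:1438129-1438436). The change was 1.23 at 24 h (0.86 to 1.61; edgeR adjusted p = 3.36e-10) and -0.02 at 72 h. RPS12 (chr6:132814148-132814542) measured 21.0 and 18.1 CPM in control, 43.8 and 37.4 in the 24 h pair, 31.0 and 31.0 in the 48 h pair, and 19.5 and 19.9 in the 72 h pair, a change of 1.05 at 24 h (0.71 to 1.40; edgeR adjusted p = 6.71e-09). Both were back among the control libraries at 72 h. RPL7A, chosen after its values were seen, also rose at 24 h at its promoter (chr9:133348027-133348351), with 20.1 and 18.7 CPM in control, 41.2 and 37.4 in the 24 h pair, and 19.5 and 16.3 in the 72 h pair. Of its 72 h libraries, 1 lay between the control libraries and 1 below both. Its 24 h change was 1.01 (0.67 to 1.37; edgeR adjusted p = 3.12e-08). RPL34, a large subunit gene, showed no such rise and was lower at 72 h (chr4:108620338-108620779), with 28.6 and 25.5 CPM in control and 11.0 and 15.4 in the 72 h pair. That change was -1.04 (-1.66 to -0.49; edgeR adjusted p = 0.000407) and did not pass without 72 h replicate 1 (-0.81).

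Sites downstream of the start rose with exposure time relative to the other sites. Of 35 tested downstream sites in 25 genes, 7 were lower and 13 higher at 24 h. The 48 h libraries had 4 lower and 16 higher, and those of 72 h had 1 lower and 24 higher (68.6%), with medians of 0.15, 0.51 and 0.93. At 72 h, 15 of them were called at least 2-fold higher. Of the 35, 12 had no control peak and were listed only through treated peaks, so a rise over control was built into their listing. These 12 held 10 of the 24 higher sites and 10 of the 15. Over all 13861 tested sites downstream of a protein-coding gene start, 30.5% were lower and 24.4% higher at 24 h, 19.5% lower and 16.5% higher at 48 h, and 2705 (19.5%) lower and 2488 (17.9%) higher at 72 h. Their 72 h median was -0.08, and 1728 were called at least 2-fold higher then. The 692 tested sites within 1 kb of the far end of a protein-coding gene had a median of -0.01. Both of these sets leave out sites within 1 kb of any listed protein-coding gene start. The 35 were classed by the start of their own gene alone, so the sets are not built alike. Without 72 h replicate 1, 0 downstream sites were lower. Scaled to the background level, 21 of the 35 were lower and 8 higher at 72 h, and 30 of the 35 lay above the median of all sites, whereas 25 of the 66 start sites did. The position classes were chosen after values had been seen, so these counts are a description with no test.

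**Figure D3:**
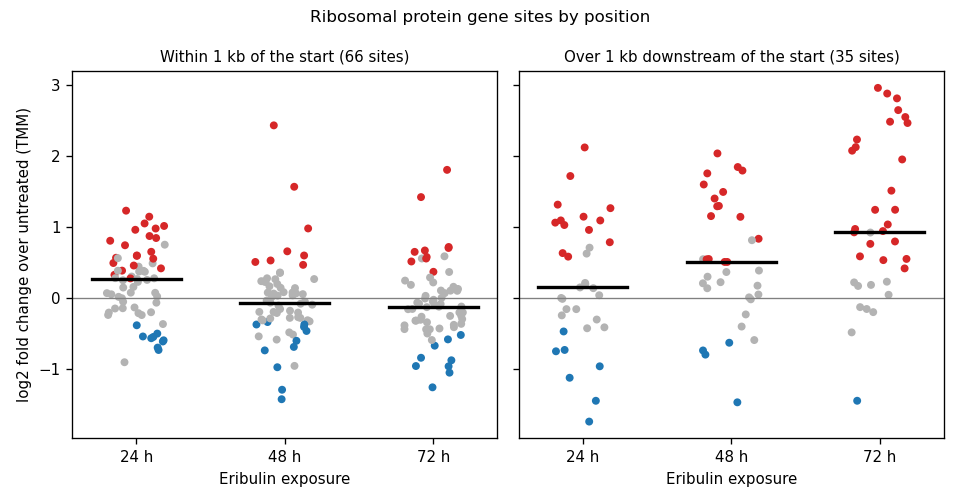
Log2 fold change over untreated cells (vertical axis, TMM scaling) at 24, 48 and 72 h for the 66 tested start sites (left) and the 35 tested downstream sites (right); points are sites, red called higher, blue called lower, grey not called, and black lines are medians. The medians of start sites are 0.26, -0.07 and -0.12 and those of downstream sites 0.15, 0.51 and 0.93. Of the 35 downstream sites, 12 had no control peak, so a rise was built into their listing. The 23 with a control peak have medians of -0.15, 0.23 and 0.55. With the background level as the scale 21 of the 35 downstream sites are lower at 72 h.

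Most of the downstream sites lay beyond the end of the gene, and so did most of those that rose. Of the 35, 22 lay past the far end, of which 17 were higher at 72 h, and 13 lay inside the gene, of which 7 were. Over the 692 tested sites within 1 kb of the far end of a protein-coding gene, 17.1% were lower and 19.7% higher at 72 h. The 24 higher sites fell in 19 genes and lay between 2928 and 12803 bases from the start. How a site was listed bears on such counts, because 12 of the 35 had no peak in control and entered the table only through a treated list, so that a rise over control was built into their listing. Sites of RPL35, RPS10, RPL13, RPS18, RPL13A, RPL18, RPL7A and RPS28 are among them. The 23 with a peak in control had 6 lower and 5 higher at 24 h, 4 lower and 7 higher at 48 h, and 1 lower and 14 higher at 72 h, with medians of -0.15, 0.23 and 0.55. Over all 12047 downstream sites with a control peak the medians were -0.23, -0.18 and -0.19, and 12.1% were higher at 72 h. Another protein-coding gene lay within 2 kb of 18 of the 35, and the 17 without one had a median of 0.92, with 10 higher and 1 lower.

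Start and downstream sites were also set side by side within genes. Among sites with a control peak, 16 members had both kinds, and the site strongest in control was taken for each kind. The downstream site had the higher log2 fold change in 7 of the 16 genes at 24 h (43.8%), 11 at 48 h (68.8%) and 13 at 72 h (81.2%). Across all 3471 protein-coding genes with such sites the shares were 37.6%, 39.1% and 38.6%, and among the 1149 of them no longer than 27723 bases they were 35.0%, 43.0% and 45.0%. Without the limit to control peaks, 23 members had both kinds of tested site, and the site with the highest mean over all libraries was taken. In 8 of the 23 that downstream site had no control peak, and all 8 lay above the start site at 72 h. Over the 23 genes the downstream site was the higher in 13 at 24 h (56.5%), 18 at 48 h (78.3%) and 20 at 72 h (87.0%). Across all 3852 protein-coding genes with both kinds of site the shares were 43.5%, 45.1% and 44.8%. Among the 1283 of these that were no longer than the longest of the 23 genes, at 27723 bases, they were 39.0%, 47.3% and 49.3%. The exceptions at 72 h were RPL7L1, RPS3 and RPS9 in either choice of sites. Both sites of a gene are read in the same libraries with the same scaling factor, so this order does not change with the scaling.

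**Figure D4:**
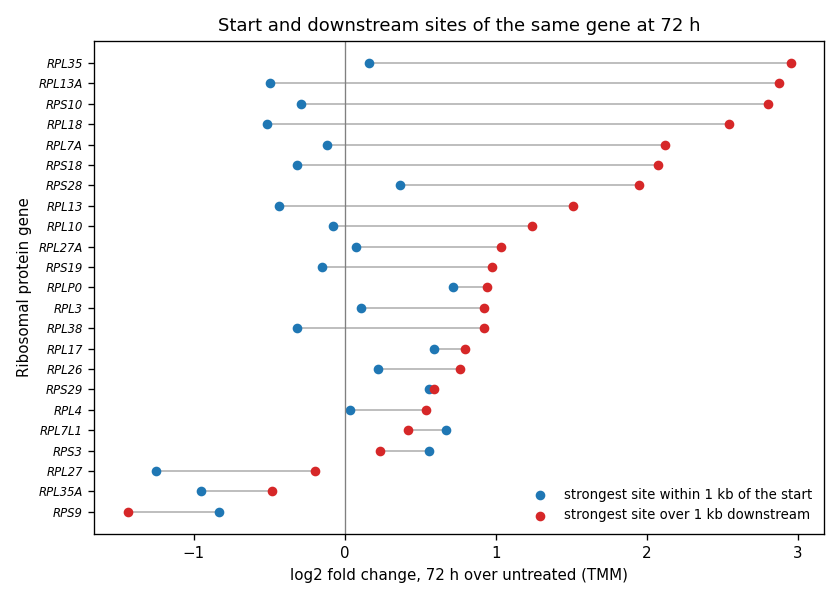
Log2 fold change at 72 h over untreated cells (horizontal axis, TMM scaling) at the strongest start site (blue) and the strongest downstream site (red) of each of 23 genes (vertical axis). The downstream point lies to the right in 20 of the 23 genes, of which 8 have a downstream site with no peak in untreated cells; a scale set to the background level moves all points left by the same amount.

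RPL35, a large subunit protein near the exit of the nascent chain tunnel, had the steepest rise. Its site past the far end of the gene, 4912 bases from the start (chr9:124856705-124857385), measured 11.0 and 16.8 CPM in control, 31.2 and 37.4 in the 24 h pair, 69.5 and 43.5 in the 48 h pair, and 103 and 110 in the 72 h pair. The site had no control peak, so a rise over control was built into its listing and its adjusted p-value is no test of that rise. The groups did not overlap, and the changes were 1.31 at 24 h, 2.03 at 48 h and 2.95 at 72 h (2.61 to 3.32; edgeR adjusted p = 1.71e-49). A neighbouring site with a control peak (chr9:124855954-124856340) went from 17.3 and 15.2 CPM in control to 77.9 and 75.2 in the 72 h pair, a change of 2.23 (1.88 to 2.59; edgeR adjusted p = 3.01e-30). WDR38 lies within 2 kb of both. At the RPL35 promoter the 72 h libraries, at 35.6 and 24.4 CPM, stood around the control libraries at 24.9 and 29.4 (0.16, -0.26 to 0.57).

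RPS10, a protein of the small subunit head that is ubiquitinated when ribosomes collide, repeated the pattern 9665 bases from its start. The site chr6:34416169-34416639 measured 9.92 and 10.0 CPM in control, 20.6 and 21.1 in the 24 h pair, 23.4 and 36.9 in the 48 h pair, and 57.6 and 83.3 in the 72 h pair. The 72 h change was 2.81 (2.39 to 3.25; edgeR adjusted p = 1.54e-34), and every treated library lay above both controls. Its neighbour (chr6:34415630-34415787) rose by 2.64 (1.99 to 3.36; edgeR adjusted p = 1.08e-14), from 3.97 and 4.52 CPM to 27.1 and 26.3. Neither site had a control peak, so a rise over control was built into their listing and the adjusted p-values are no test of it. The promoter of RPS10 did not pass the test at any time (-0.29 at 72 h, -0.97 to 0.33).

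RPL13, a large subunit gene, carried a pair of rising sites inside the gene. The site chr16:89565352-89565605 went from 5.67 and 4.52 CPM in control to 6.54 and 4.74 in the 24 h pair, 18.1 and 17.7 in the 48 h pair, and 27.1 and 30.8 in the 72 h pair. Here the 24 h libraries overlapped control (0.14, -0.70 to 0.96), and the changes were 1.79 at 48 h and 2.48 at 72 h (1.88 to 3.13; edgeR adjusted p = 9.52e-15). That site had no control peak, so a rise over control was built into its listing and its adjusted p-value is no test of that rise. The site next to it, which had a control peak (chr16:89565648-89565990), rose by 1.51 at 72 h (1.02 to 2.01; edgeR adjusted p = 3.11e-08). RPL10, a late-joining subunit protein next to the catalytic centre, passed the test against control at 72 h alone. Its site chrX:154401109-154401742, inside the gene and also near DNASE1L1, measured 71.1 and 64.5 CPM in control, 67.9 and 68.5 in the 24 h pair, 74.8 and 84.1 in the 48 h pair, and 163 and 158 in the 72 h pair. The changes were 0.00, 0.23 and 1.24 (1.04 to 1.44; edgeR adjusted p = 2.59e-28), and the last is -0.26 on the background scale.

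Downstream sites of RPS18 and RPL17 were higher at 24 h already. The RPS18 site had no control peak, so a rise over control was built into its listing and its adjusted p-values are no test of that rise. The site past the end of RPS18, a small subunit head protein (chr6:33276888-33277292, near B3GALT4), was already at 28.2 and 23.2 CPM in the 24 h pair, from 4.25 and 7.74 in control, measured 12.8 and 13.3 in the 48 h pair, and 22.0 and 28.1 in the 72 h pair. Its changes were 2.12 at 24 h (1.58 to 2.70; edgeR adjusted p = 9.11e-15), 1.14 at 48 h and 2.07 at 72 h (1.47 to 2.71; edgeR adjusted p = 1.58e-10). The site was listed through its 24 h peak alone, and the 48 h value did not pass without control replicate 1 (0.76). The site downstream of RPL17 (chr18:49487054-49487566, near C18orf32) was highest at 24 h, at 39.7 and 34.3 CPM against 18.7 and 15.8 in control (1.09, 0.73 to 1.46; edgeR adjusted p = 1.07e-08), and stood at 33.9 and 26.3 CPM in the 72 h pair.

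Other downstream sites with large 72 h rises fell outside the naming rule because their mean signal was below the median site, and are named after their values were seen. RPL13A (chr19:49492875-49493003) went from 2.55 and 3.87 CPM in control to 21.2 and 26.3 in the 72 h pair, a change of 2.87 (2.15 to 3.70; edgeR adjusted p = 1.94e-14). RPL18 (chr19:48614968-48615187) went from 3.12 and 5.16 CPM to 27.1 and 20.8, a change of 2.54 (1.87 to 3.28; edgeR adjusted p = 8.04e-13), while its promoter fell. RPL7A (chr9:133352009-133352129) went from 4.82 and 4.52 to 20.3 and 20.8, a change of 2.12 (1.45 to 2.84; edgeR adjusted p = 4.89e-09), while its promoter libraries overlapped control. All 3 sites had a peak only at 72 h, so a rise over control was built into their listing and the adjusted p-values are no test of it. The 3 sites rest on few counts, and their intervals are correspondingly wide. The 1 downstream site called lower at 72 h was that of RPS9 (chr19:54208167-54208377), at -1.44 (-2.41 to -0.61; edgeR adjusted p = 0.000655), and the call was lost without 72 h replicate 1.

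**Figure D5:**
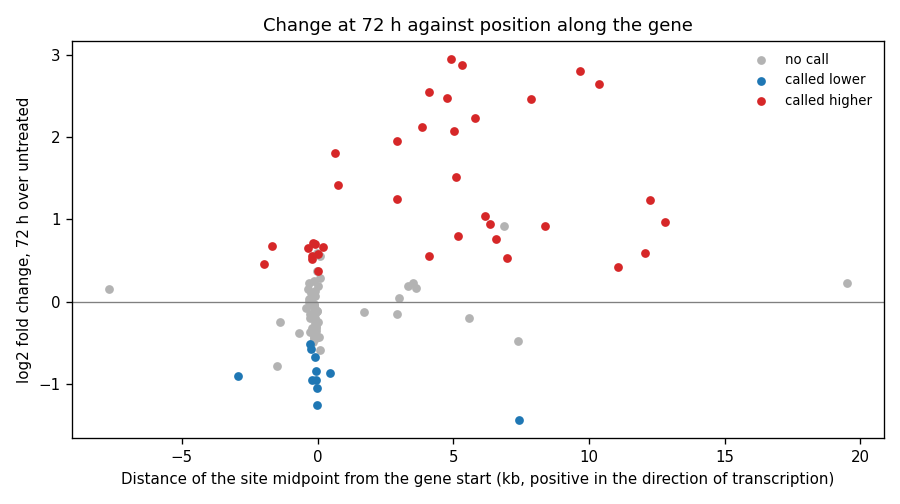
Log2 fold change at 72 h over untreated cells (vertical axis, TMM scaling) against the distance of the site midpoint from the gene start (horizontal axis, kb, positive in the direction of transcription) for tested sites of genes with a listed start. Called sites at the start go either way, while 24 of the 35 sites over 1 kb downstream are called higher and 1 lower. Of these 24, 10 are among the 12 downstream sites with no control peak, where a rise was built into the listing. Scaled to the background level, 8 of the 35 are higher and 21 lower.

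Between successive times the promoter and downstream sites also parted. From 24 to 48 h, 19 member sites fell and 19 rose, where 14.4% of all tested sites fell and 16.8% rose. Start sites made up 12 of the falls and 3 of the rises, and downstream sites 2 and 11. For member start sites the shares were 18.18% and 4.55%, against 15.33% and 13.99% over all tested start sites. For member downstream sites they were 5.71% and 31.4%, against 13.2% and 18.2% over all tested downstream sites. Without 24 h replicate 1 the number of member sites that rose was 11. Downstream sites made up 14 of the rises from 48 to 72 h, and 7 of these 14 had no control peak. In all, 2 member sites fell and 17 rose over that step, where 2.4% of all tested sites fell and 2.82% rose. Each single library of either time was needed for that number, which was 9 without 48 h replicate 1, 7 without 48 h replicate 2, 11 without 72 h replicate 1 and 9 without 72 h replicate 2, and the falls then numbered 1, 1, 0 and 1. From 24 to 72 h, 22 member sites fell and 34 rose (17.2% and 26.6%), where 16.4% of all tested sites fell and 19.4% rose. The share of falls was thus near that of all sites.

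The duplicated forms, which encode alternative copies of a ribosomal protein, did not move as one. RPL26L1 was lower at each time at a site inside the gene (chr5:172955661-172955915), at position -2941 from the nearest listed start. The site had 51.0 and 50.3 CPM in control, 43.3 and 31.6 in the 24 h pair, 30.2 and 32.5 in the 48 h pair, and 22.9 and 31.7 in the 72 h pair. Its 72 h change was -0.90 (-1.32 to -0.51; edgeR adjusted p = 1.29e-05). RPL39L, a copy known for its expression in testis, was higher at each time (chr3:187139245-187139878), with 18.7 and 16.5 CPM in control, 25.7 and 28.5 in the 24 h pair, 24.9 and 28.0 in the 48 h pair, and 32.2 and 29.0 in the 72 h pair. Its 72 h change was 0.79 (0.35 to 1.23; edgeR adjusted p = 0.00201), which did not pass without 72 h replicate 1 (0.72) and is -0.71 on the background scale. RPL7L1 (chr6:42890356-42890982, also near PEX39) rose by 1.03 at 24 h (0.77 to 1.30; edgeR adjusted p = 1.43e-13), from 33.4 and 32.6 CPM to 75.5 and 59.0, and stood at 49.1 and 38.9 in the 72 h pair. RPL36AL, which shares its promoter region with MGAT2, measured 70.0 and 81.6 CPM in control and 95.7 and 99.6 in the 72 h pair (chr14:49620255-49620949). The change was 0.37 (0.14 to 0.60; edgeR adjusted p = 0.007) and did not pass without control replicate 1 (0.25) or without 72 h replicate 2 (0.34).

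The remaining duplicated forms gave small or imprecise differences. RPS27L, a p53 target, had the weakest lead site of them, with 3.12 and 4.84 CPM in control and 6.54 and 11.1 in the 24 h pair (1.14, 0.38 to 1.95; edgeR adjusted p = 0.00492), at a site with a peak only at 24 h, and the call was lost without control replicate 1 (0.82). Having no control peak, that RPS27L site had a rise over control built into its listing. RPL22L1 passed at no time (-0.44 at 72 h, -0.90 to 0.00), nor did RPL3L, a copy known from striated muscle (-0.18 at 72 h, -0.64 to 0.27). Of the stalk genes, RPLP1 (-0.59 at 72 h, -1.39 to 0.14) and RPLP2 (-0.08, -0.49 to 0.31) did not pass, in contrast to the values of RPLP0 above; the difference between them was not tested. RPSA, which encodes a small subunit protein also known as the laminin receptor, was lower at 24 h (chr3:39406388-39406787), from 54.4 and 54.8 CPM to 40.2 and 43.7. The change was -0.38 (-0.66 to -0.11; edgeR adjusted p = 0.0103), which did not pass without 24 h replicate 1 (-0.31), and at 72 h the libraries stood at 52.5 and 53.4 CPM.

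RPS4X, the X-linked copy of a gene that also exists on the Y chromosome, reversed its course. Inside the gene, 4088 bases from the start (chrX:72273040-72273280), signal went from 24.9 and 27.1 CPM in control to 8.55 and 10.5 in the 24 h pair, 15.1 and 18.5 in the 48 h pair, and 40.6 and 35.3 in the 72 h pair. The 24 h libraries were the lowest and the 72 h libraries the highest. The change was -1.44 at 24 h (-2.0 to -0.93; edgeR adjusted p = 9.84e-09) and 0.55 at 72 h (0.16 to 0.93; edgeR adjusted p = 0.0158). The 72 h value did not pass without control replicate 1 (0.48) or 72 h replicate 1 (0.45), and is -0.95 on the background scale.

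Promoter letters and change were set side by side without a test. The 8 start sites of genes with CAGGTG had a median control signal of 28.9 CPM, against 17.3 CPM for the 58 without it, and 4 of the 8 were higher at 72 h, against 6 of the 58. Those 4 are the sites of RPLP0, RPL36AL, RPS29 and RPS21, of which the first 3 promoters are printed above. The 8 sites stand for fewer than 8 genes, since RPL32 had no site and RPL26L1 gave more than 1. Over all tested sites within 1 kb of a protein-coding gene start, 17.1% were higher at 72 h. Scaled to the background level, 64 of the 66 member start sites were lower and 0 higher then. The 12 start sites of genes with TCTCGCGA had 0 lower and 8 higher at 24 h (median 0.48), against 9 and 13 of the 54 without it (median 0.19). The 45 start sites of genes with a pyrimidine start had a median of 26.5 CPM in control and changes of 0.25, -0.09 and -0.20 at 24, 48 and 72 h. For the 21 without it these values were 16.7 CPM and 0.46, 0.07 and 0.10. The 21 include RPL27 and RPS15, whose pyrimidine run lies a few bases after the listed start. The split thus depends in part on where the start is listed.

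Sites of both subunits were counted side by side. Of 85 tested sites of large subunit genes, 9 were lower and 27 higher at 72 h, and of 43 of small subunit genes 3 and 13, with medians of 0.03 and 0.11. Sites of members that host small nucleolar RNAs (48) had 1 lower and 14 higher (2.08% and 29.2%), and the other 80 had 11 and 26 (13.8% and 32.5%). Related gene lists were linked to sites by the same rule and compared with control at 72 h. The mitochondrial ribosomal protein genes, which serve the separate ribosome of that organelle, had 11 lower and 12 higher of 94 tested sites (11.7% and 12.8%), with a median of 0.06. Both shares lay below those over all tested sites. Translation factors and other TOP genes had 11 and 11 of 57 (19.3% each, median -0.02). Ribosome biogenesis genes had 8 and 9 of 62 (12.9% and 14.5%, median 0.01), and small nucleolar RNA host genes 2 and 6 of 21 (9.52% and 28.6%, median 0.38). At 24 h the mitochondrial list had 22 lower and 26 higher (23.4% and 27.7%), with a median of -0.03. Over all tested sites these shares were 26.8% and 28.1%. The difference between these lists and the cytoplasmic ribosomal protein genes was not tested.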

How the data were processed

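ZEB1 CUT&RUN was deposited for 8 libraries of 4 conditions (n = 1 per condition after pooling, as given above). The deposited count table holds counts per consensus site, as whole numbers without normalization; the sources used here do not give whether these are reads or fragments. The deposited peak lists, 1 per condition, give a fold enrichment (a ratio) and -log10 p and q values for each peak, per the layout of the file, and carry replicate 1 names. The submitters' processing notes name hg38, MACS2 2.1.1, featureCounts, bedtools 2.30.0, deepTools, Picard, Bowtie2 2.2.6, cutadapt 2.4 and bcl2fastq 2.20.0.422, without saying what each was used for.

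Counts were fitted with edgeR 4.0.16 (R 4.3.3): a robust quasi-likelihood model with condition as its single term over the 8 libraries, TMM scaling, the filterByExpr filter, and Benjamini-Hochberg adjustment at 0.05 over all 46436 sites kept. Of the 131 member sites 3 were not tested: the sites of RPS23 and 1 each of RPS29 and RPL7. The fit was tested on simulated data. The 95% intervals of log2 changes come from the exact binomial interval of each pooled pair of counts. Background levels were recovered from the fold and p columns of the peak lists. Starts and promoter windows come from RefSeq (GRCh38 patch 14, the build of hg38). A peak counted where it shared at least 1 base with a site. DESeq2 1.42.0 was run as an alternative.

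The members, gene lists, motifs and tests were chosen with earlier results of these data known. Sites are named by rule: the 10 with the highest control signal, up to 8 per direction and time with the largest called change of at least 2-fold and a mean signal at or above the median tested site (12.7 CPM), and the strongest site of each duplicated form, RPS4X, RPSA and stalk gene. Some sites the rule names are not reported here, and their counts stay in the totals. Others are said to be named after their values were seen. No deposited column of counts was left out, and the 2 IgG samples were not used.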

Additional observations from a re-analysis of the deposited data

Results flagged for a closer look

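At 5 member sites the change against control, on the TMM scale, was called in opposite directions at different times, and the difference between those times passed the edgeR test itself. The same count over all tested sites is not given here, so the 5 are not read as a trait of these genes. They were picked by their opposite calls, so the adjusted p-values of the differences are no separate test. The libraries of a condition are counted as 1 sample, so each difference is between libraries. The largest was at the downstream site of RPS28 (chr19:8324353-8324510, also near KANK3), a small subunit gene. It measured 5.38 and 5.16 CPM in control, 1.01 and 2.11 in the 24 h pair, 6.80 and 5.17 in the 48 h pair, and 19.5 and 21.7 in the 72 h pair, and the 72 h value was 3.68 above that at 24 h on the log2 scale (edgeR adjusted p = 9.41e-13). That site had a peak only at 72 h, so it is in the count table through the group where it is high, and its 24 h libraries hold 2 and 4 counts. The other 4 sites had a peak in control. At the internal site of RPS4X the same difference was 1.99 (edgeR adjusted p = 5.67e-12). The promoter of RPS27A, which encodes a fusion of ubiquitin and a small subunit protein, went from 40.5 and 46.8 CPM in control to 29.7 and 27.9 in the 24 h pair and 59.3 and 77.9 in the 72 h pair (chr2:55231991-55232685, also near CLHC1), a difference of 1.24 (edgeR adjusted p = 1.05e-10).

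The promoters of RPS16 and RPS19 went the other way. RPS16 (chr19:39435913-39436193) measured 36.3 and 34.5 CPM in control, 47.3 and 41.6 in the 24 h pair and 20.3 and 24.4 in the 72 h pair, a difference of -0.99 between 72 and 24 h (edgeR adjusted p = 5.18e-05). RPS19, whose loss causes an inherited anaemia (chr19:41859547-41860403), measured 83.0 and 70.7 CPM in control, 90.0 and 97.5 in the 24 h pair and 68.0 and 54.6 in the 48 h pair, a difference of -0.61 between 48 and 24 h (edgeR adjusted p = 4.94e-05). Its 24 h call was lost without control replicate 2 (0.14) or 24 h replicate 2 (0.20), and its 48 h call without control replicate 1 (-0.20) or 48 h replicate 2 (-0.16). With 2 libraries in each group no search for outlying libraries was possible.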

How the results depend on the processing

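Depth limits the low sites, and each condition is 1 sample. The cause of the differences below was not tested. Counts are of member sites lower and higher than control unless another base is named. Background scaling gave 87 lower and 2 higher at 24 h, 112 lower and 3 higher at 48 h, 109 lower and 9 higher at 72 h, 73 lower and 5 higher from 24 to 48 h, 11 higher from 48 to 72 h, and medians of -0.71, -1.36 and -1.44 at 24, 48 and 72 h. Under it 48 start sites were lower and 0 higher at 24 h, and 21 downstream sites were lower and 8 higher at 72 h. TMM from the low-count sites gave 24 higher at 24 h, 28 lower at 48 h and 21 lower at 72 h, 15 start sites lower and 7 higher at 24 h, and medians of 0.01, -0.08 and -0.07. Total counts without TMM gave 29 lower from 24 to 48 h and a median of 0.32 at 24 h. The Wald test of DESeq2 gave 6 lower and 16 higher at 24 h, 2 lower and 12 higher at 48 h, 6 lower and 26 higher at 72 h, 4 and 6 from 24 to 48 h, 1 and 6 from 48 to 72 h, 1 and 5 start sites at 24 h and 0 downstream sites lower at 72 h. With an assumed coefficient of variation of 0.2 between cultures the counts were 4 and 17 at 24 h, 2 and 13 at 48 h, 2 and 22 at 72 h, 3 and 5 from 24 to 48 h, 0 and 0 from 48 to 72 h, and 0 and 6 start sites at 24 h. Linking sites within 5 kb gave 32 lower at 24 h, 35 higher from 24 to 48 h and a median of 0.15 at 24 h. Keeping sites within 1 kb of a gene end gave 13 lower at 24 h, 18 higher at 48 h, 25 higher at 72 h, 11 higher from 24 to 48 h, 11 higher from 48 to 72 h, and medians of 0.27 and -0.02 at 24 and 72 h. Keeping only sites with a control peak, chosen after seeing the data, left 14 downstream sites higher at 72 h. The within-gene comparison limited to such sites was also chosen after seeing the data.

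Leaving out 1 library at a time gave 15 to 22 lower and 27 to 40 higher at 24 h, 8 to 19 lower and 18 to 28 higher at 48 h, and 6 to 12 lower and 32 to 40 higher at 72 h. From 24 to 48 h the ranges were 13 to 19 and 11 to 21, and from 48 to 72 h 0 to 2 and 7 to 17. Start sites at 24 h ranged from 7 to 10 lower and 10 to 19 higher, and downstream sites at 72 h from 0 to 1 lower and 21 to 24 higher. The medians ranged from 0.14 to 0.21 at 24 h, 0.02 to 0.07 at 48 h and -0.04 to 0.11 at 72 h. Numbers of genes with a peak stayed within 1.5 times of the values given under the alternatives run.

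Of the 52 results at named sites, 23 lost their call under DESeq2, 28 with the assumed variation, 9 with TMM from the low-count sites and 12 with background scaling. Background scaling also turned the sign of 18: RPL10 (-0.26 at 72 h), the RPL13 site with a control peak (-0.26 at 48 h), RPL17 (-0.58 and -0.70 at 48 and 72 h), the RPL35 site with a control peak (-0.35 and -0.13 at 24 and 48 h), RPL36AL (-1.13), RPL39L (-0.32, -0.83 and -0.71), RPL7L1 (-0.91 and -1.08), RPLP0 (-0.78), RPS12 (-0.76), RPS15 (-0.82), RPS18 (-0.27), RPS19 (-0.66) and RPS4X (-0.95).

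Libraries with the same replicate number did not deviate together (correlations of their deviations from -0.0046 to 0.014), so the numbers do not pair the libraries. A fit with the replicate number as a block gave 21 lower and 43 higher at 24 h, 18 lower and 28 higher at 48 h and 12 lower and 40 higher at 72 h, and changed none of the 52 calls at named sites.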

Other observations

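RPS19 shows both classes of site in 1 gene. Past its far end, 12803 bases from the start (chr19:41872998-41873417), signal was 44.8 and 43.9 CPM in control, 39.2 and 32.7 in the 24 h pair, 58.9 and 70.9 in the 48 h pair, and 88.9 and 85.1 in the 72 h pair, a change of 0.97 at 72 h (0.71 to 1.24; edgeR adjusted p = 3.18e-11). A second site near it (chr19:41872507-41872795) went from 15.0 and 12.9 to 29.6 and 37.1 CPM (1.24, 0.79 to 1.70; edgeR adjusted p = 8.18e-07). At the promoter the 72 h libraries overlapped control. All 3 sites of RPL26L1 were lower at 24 h. The sites at its listed starts (chr5:172958553-172958979 and chr5:172959196-172959459) changed by -0.69 and -0.73.

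The share of all counts that fell in the 131 member sites was 0.318% in untreated cells, and 0.369%, 0.331% and 0.383% after 24, 48 and 72 h.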
